A study of Homo sapiens with 6 samples.

Results

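The mitochondrial carriers of the SLC25 family were examined in HUVECs, primary human endothelial cells from the vein of the umbilical cord. Every name in the deposited expression files that began with SLC25A and a digit was taken. This gave 48 rows and 46 names of 18336, of which 42 were carriers and 4 were antisense RNAs named after a carrier gene. The cells of one group had been transfected with miR-483, a microRNA, and those of the other with 8OH-G miR-483, an oxidised form carrying 8-hydroxyguanine, a common mark of oxidative damage to RNA. Both groups received Lipofectamine, RNA was taken on day 2 (48 hours), and each group had 3 libraries, called unmodified 1 to 3 and oxidised 1 to 3 below. No untreated or scramble libraries were analysed here, so a difference can come from either form of the microRNA, and the labels do not say which arm or which guanine was involved. Whether a group's libraries are separate cultures is not stated either, and the p-values therefore reflect the spread of these libraries, which may be technical. Values are FPKM (corrected for both transcript length and sequencing depth), a unit inferred from the values and not named in the files. In these bulk samples, fewer cells of a type and less RNA per cell cannot be told apart.

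SLC25 proteins are nuclear-encoded transporters, most of which sit in the inner membrane of the mitochondrion. They exchange nucleotides, phosphate, organic acids, amino acids, cofactors and metals between the cytosol and the matrix, which that membrane otherwise keeps apart. They are made in the cytosol, handed by the outer membrane receptor TOM70 to small TIM chaperones, and inserted by the TIM22 complex. Endothelial cells draw much of their ATP from glycolysis, and their mitochondria are also known as a source of biosynthetic precursors and signals.

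Total FPKM per library ran from 1396537 to 1440422 with miR-483 and from 1598260 to 1687283 with 8OH-G miR-483, ranges that did not overlap. Mitochondrially encoded rows made up 71.3% to 76.6% of the total. Read depth is unknown. All 10 endothelial markers examined had a row and were tested. Their summed level was 2130 to 2161 FPKM with miR-483 and 1342 to 1584 FPKM with 8OH-G miR-483. Of these markers 5 fell, among them PECAM1, CDH5 and VWF, and 0 rose. KDR, ERG, EGFL7, CLDN5 and ESAM did not pass. Of 16 markers of other cell types, 7 had a row, and their sum was 18.7 to 22.1 and 10.1 to 12.2 FPKM. Of these 7, DCN and MYH11 were below 0.5 FPKM in every library and none was at 0 in all. LYZ, COL3A1 and CD68 were the 3 of 4 tested that fell, LYZ having reached the minimum for testing only through the miR-483 libraries. All 12 cell-cycle genes examined rose, where 34.9% of all tested genes rose and 20.5% fell by the test described below. The summed level of the 12 was 63.8 to 72.4 FPKM with miR-483 and 334 to 414 FPKM with 8OH-G miR-483. The part of these shifts in the carrier results was not tested.

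The dicarboxylate carrier SLC25A10, the ornithine carrier SLC25A15, the folate carrier SLC25A32 and the acylcarnitine carrier SLC25A20 were higher with 8OH-G miR-483, and the iron carrier SLC25A37 and the citrate carrier SLC25A1 were lower. The rise was 2.97-fold for SLC25A10, 2.26-fold for SLC25A15 and 1.98-fold for SLC25A32 in mean FPKM, and SLC25A37 was 1.53-fold lower. Of the 46 names, 38 reached 1 FPKM in at least 3 libraries and were tested with limma on log2(FPKM + 1), with Benjamini-Hochberg adjustment over all 12729 tested genes. At an adjusted p of 0.05, 21 of the 38 rose, 6 fell and 11 did not pass. Over all tested genes 34.9% rose and 20.5% fell, 55.3% in either direction. The median log2 fold change was 0.23 over the 38 carriers and 0.09 over all tested genes. The groups did not overlap for 22 higher and 8 lower carriers, beside 39.5% and 23.8% of all tested genes (63.3% together). A change of at least 0.5 on the log2 scale that also passed was seen in 9 higher and 1 lower carrier, beside 17.8% and 9.85% of tested genes.

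The split between higher and lower depended on scaling. After median-ratio scaling, a shift of -0.10 (log2) in the median of all tested genes, 15 carriers rose and 11 fell, beside 27.2% and 27.3% of all tested genes (54.5% together). After quantile normalization 16 rose and 9 fell, beside 27.0% and 28.0% (55.0% together). With no filter on low values 19 carriers rose and 5 fell, while 26.5% of 18327 names rose and 42.5% changed in either direction. The count of lower carriers was 3 without unmodified 2 and 4 without any other single library. Over all genes 2029 to 2491 fell with a single library left out, in place of 2608. Under all 13 alternatives that kept the plain test, 15 of the 21 higher calls and 2 of the 6 lower calls held wherever the gene was tested. The matching count over all tested genes is not given, so these counts are not set apart from the rest of the genes. Among the 15 were SLC25A4, SLC25A5, SLC25A10, SLC25A11, SLC25A12, SLC25A13, SLC25A15, SLC25A17, SLC25A20, SLC25A22, SLC25A24, SLC25A32, SLC25A33 and SLC25A40, and the 2 lower were SLC25A1 and SLC25A37. When the test asked for a change of more than 1.2-fold, 9 of 38 carriers rose and 1 fell, beside 2259 and 1182 of all 12729 tested genes.

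**Figure D1:**
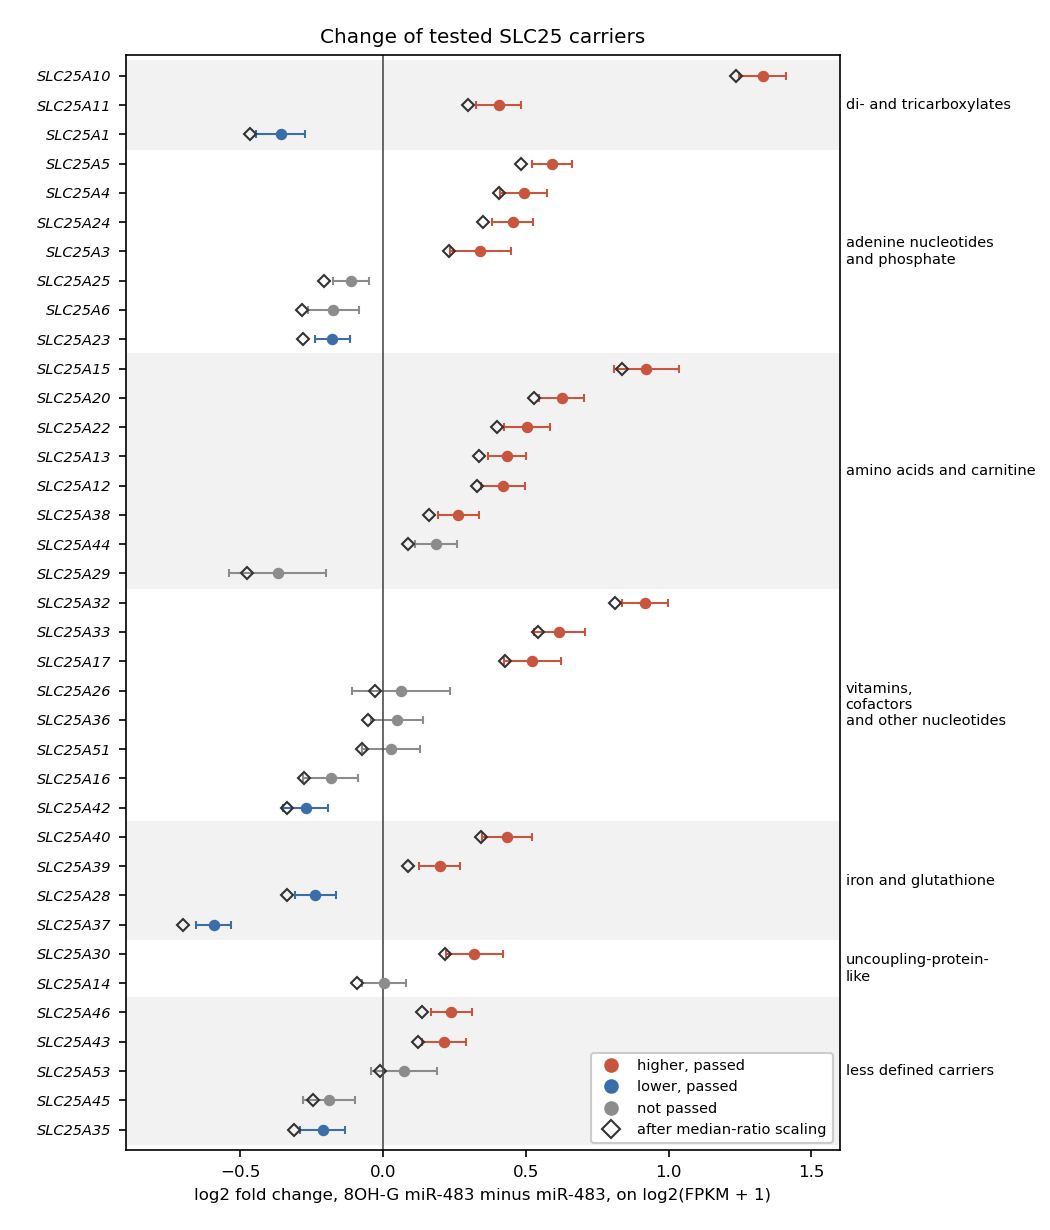
Difference in mean log2(FPKM + 1) between cells given the oxidised and the unmodified form, for the tested carriers described here, by what the carrier moves; bars are the limma standard error, filled points the values as deposited and open diamonds those after median-ratio scaling, with red for carriers that passed as higher, blue for lower and grey for neither. The points run from -0.59 (SLC25A37) to 1.33 (SLC25A10), and the diamonds lie to the left of the points throughout.

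Carriers of di- and tricarboxylates moved in opposite directions. SLC25A10, the dicarboxylate carrier that exchanges malate and succinate for phosphate, was at 3.04, 3.27 and 3.60 FPKM with miR-483 and at 9.38, 10.6 and 9.48 FPKM with 8OH-G miR-483. The lowest library given the oxidised form thus stood far above the highest given the unmodified one. The change (log2 fold change 1.33, SE 0.081, adjusted p = 4.81e-06, limma) was higher than that of 97.3% of all tested genes. SLC25A11, which exchanges oxoglutarate for malate in the malate-aspartate shuttle, was at 20.4 ± 1.2 FPKM and rose to 27.4 ± 2.16 FPKM. Here and below, errors are SDs with n = 3 in each group. SLC25A1, which exports citrate for the synthesis of fatty acids and sterols, fell from 35.7 ± 2.62 to 27.7 ± 2.49 FPKM (log2 fold change -0.36, SE 0.086, adjusted p = 0.00715, limma). Within each library, SLC25A1 made up 59.6% to 60.7% of the summed FPKM of these 3 carriers with miR-483 and 42.3% to 43.2% with 8OH-G miR-483. The share of SLC25A10 went from 5.56% ± 0.439 to 15.1% ± 0.671. Median-ratio scaling leaves such shares as they are. RefSeq names 5 pseudogenes of SLC25A1, with which reads may have been shared, so its level and share are uncertain. SLC25A21, the oxodicarboxylate carrier, was below the test's minimum at 0.179 ± 0.123 and 0.284 ± 0.109 FPKM.

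SLC25A3, SLC25A5 and SLC25A6, carriers of phosphate and adenine nucleotides, held 51.2% to 55.5% of the summed FPKM of all members in every library. SLC25A5, an ADP/ATP carrier that passes newly made ATP out of the matrix and is known as the isoform of dividing cells, was at 97.8, 108.6 and 105.2 FPKM with miR-483 and at 151, 161 and 159 FPKM with 8OH-G miR-483. The groups were clearly apart (log2 fold change 0.59, SE 0.070, adjusted p = 0.000153, limma). SLC25A6, the related isoform with the highest mean of all members, was at 187, 208 and 193 FPKM and at 168, 193 and 160.0 FPKM. Its groups overlapped, and it did not pass (log2 fold change -0.17, SE 0.089, adjusted p = 0.13, limma). It did pass as lower once libraries were scaled by median ratios (adjusted p = 0.021) or oxidised 2 was left out (0.0328). SLC25A4, the heart and muscle isoform, was scarce here and rose from 2.87 ± 0.220 to 4.44 ± 0.323 FPKM.

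The make-up of the ADP/ATP carriers differed between the groups by more than the spread of libraries. SLC25A5 gave 34.1%, 34.0% and 35.0% of the FPKM of SLC25A4, SLC25A5 and SLC25A6 with miR-483, and 46.7%, 44.9% and 49.1% with 8OH-G miR-483. SLC25A6 gave 64.1% to 65.1% and 49.4% to 53.9%. RefSeq names 9 pseudogenes of SLC25A5 and 6 of SLC25A6, so reads may have been shared among near copies, and both levels are uncertain.

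SLC25A3, the phosphate carrier that supplies ATP synthase, was at 117, 109.9 and 138 FPKM with miR-483 and at 150.5, 172 and 140.3 FPKM with 8OH-G miR-483. The gap between the groups was narrow beside the spread within them (log2 fold change 0.34, SE 0.107, adjusted p = 0.0249, limma). The call on SLC25A3 was lost with median-ratio scaling (adjusted p = 0.0907) and on leaving out unmodified 1 or 2 or oxidised 1 or 2 (0.0561 to 0.0789). Among the calcium-regulated carriers that exchange ATP-Mg for phosphate, SLC25A24 rose from 11.5 ± 0.476 to 16.2 ± 1.04 FPKM and SLC25A23 fell from 11.3 ± 0.159 to 9.92 ± 0.203 FPKM. SLC25A25 was at 6.24 ± 0.130 and 5.70 ± 0.0965 FPKM and passed as lower only after median-ratio scaling (adjusted p = 0.0237) or quantile normalization (0.00652). The SLC25A23 call was lost on leaving out any of unmodified 1 to 3, oxidised 1 or oxidised 2 (0.0689 to 0.106). SLC25A24 made up 38.7% to 41.0% of the FPKM of the 3 with miR-483 and 49.7% to 52.3% with 8OH-G miR-483. Of the 7 tested members of this class, 4 passed as higher and 1 as lower with the values as deposited (34.9% and 20.5% of all tested genes). With median-ratio scaling the counts were 3 and 3 (27.2% and 27.3%).

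**Figure D2:**
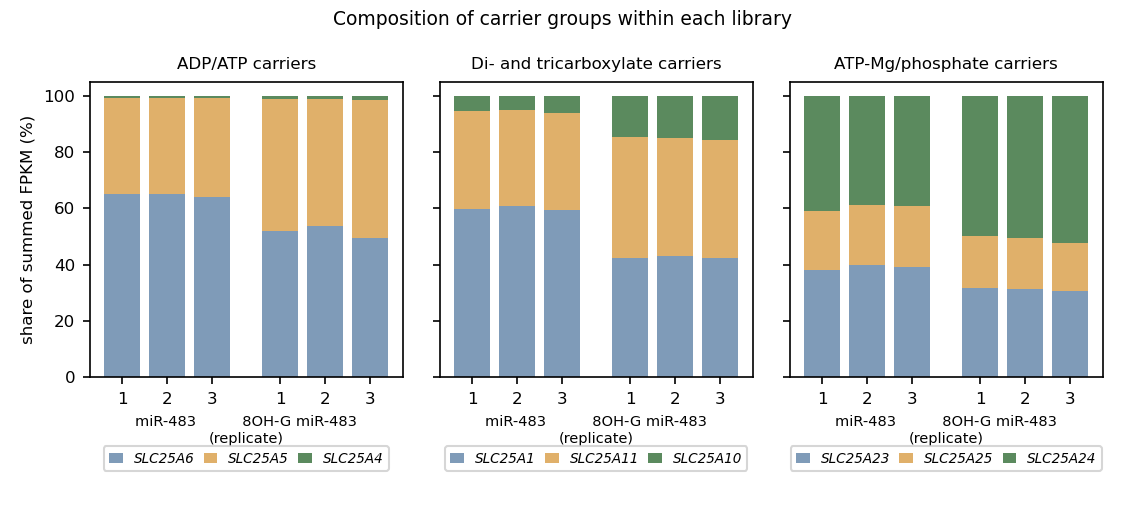
Stacked bars give, for each library, the share in percent of the summed FPKM of 3 related carriers. SLC25A5, SLC25A10 and SLC25A24 each take a larger share in all 3 libraries given 8OH-G miR-483 than in any given miR-483.

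Of 8 tested carriers of amino acids and carnitine, 6 passed as higher and 0 as lower where 34.9% and 20.5% of all tested genes did, and with median-ratio scaling 5 and 1 where 27.2% and 27.3% did. SLC25A15, the ornithine and citrulline carrier of the urea cycle, was at 2.81, 1.83 and 2.40 FPKM with miR-483 and at 4.99, 5.52 and 5.37 FPKM with 8OH-G miR-483. The 2.26-fold rise was larger than the spread, which was wide with miR-483 (log2 fold change 0.92, SE 0.113, adjusted p = 0.000182, limma). RefSeq names 5 pseudogenes of SLC25A15. SLC25A20 trades carnitine for acylcarnitine and so brings fatty acids to β-oxidation. It was at 5.01, 5.10 and 5.68 FPKM with miR-483 and at 8.87, 8.00 and 9.12 FPKM with 8OH-G miR-483, which passed (0.63 on the log2 scale, SE 0.078, adjusted p = 0.000208, limma). The glutamate carrier SLC25A22 was at 12.7, 11.3 and 13.6 FPKM with miR-483 and at 18.0, 19.1 and 17.3 FPKM with 8OH-G miR-483. Both carriers had groups that did not overlap, and the log2 fold change of SLC25A22 was 0.50 (SE 0.081).

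The aspartate-glutamate carriers SLC25A12 and SLC25A13, which drive the malate-aspartate shuttle, rose in step. SLC25A12 went from 4.18 ± 0.299 to 5.93 ± 0.336 FPKM and SLC25A13 from 5.14 ± 0.216 to 7.29 ± 0.0968 FPKM, 1.42-fold each. The share of SLC25A13 in the pair was 55.2% ± 1.58 and 55.2% ± 1.31, with ranges that overlapped. SLC25A38, which carries glycine for heme synthesis, rose from 9.47 ± 0.666 to 11.6 ± 0.198 FPKM, a call that neither median-ratio scaling (adjusted p = 0.0775) nor quantile normalization (0.159) kept. SLC25A44, a carrier of branched-chain amino acids, was at 7.73 ± 0.225 and 8.94 ± 0.675 FPKM (adjusted p = 0.0584, limma). SLC25A29, a carrier of basic amino acids, was at 36.0, 31.3 and 35.8 FPKM with miR-483 and at 35.4, 24.5 and 21.0 FPKM with 8OH-G miR-483. The first library given the oxidised form thus lay among those given miR-483, and SLC25A29 did not pass (adjusted p = 0.1, limma). Without that library SLC25A29 passed as lower (0.00294), as it did after median-ratio scaling (0.0443). SLC25A18, a second glutamate carrier, was at 0.216 ± 0.0755 and 0.241 ± 0.0384 FPKM and was not tested.

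Of 9 tested carriers of vitamins, cofactors and other nucleotides, 4 rose and 1 fell, shares not far from the 34.9% and 20.5% of all tested genes. SLC25A32, which brings folate and FAD into mitochondria, was at 9.94, 8.77 and 10.4 FPKM with miR-483 and at 18.1, 19.2 and 20.2 FPKM with 8OH-G miR-483 (log2 fold change 0.92, SE 0.080, adjusted p = 2.88e-05, limma). Its level was about doubled, with tight libraries in both groups. SLC25A33, a carrier of pyrimidine nucleotides linked to the copying of mitochondrial DNA, was low, at 1.35, 1.57 and 1.46 FPKM with miR-483 and at 3.06, 2.83 and 2.44 FPKM with 8OH-G miR-483 (0.62, SE 0.089, adjusted p = 0.000486, limma). SLC25A17, which moves coenzyme A and related cofactors into peroxisomes, was at 4.79, 5.91 and 4.42 FPKM and at 7.78, 8.00 and 7.14 FPKM (0.52, SE 0.0999). For SLC25A32, SLC25A33 and SLC25A17 the groups were apart, and every call held under both scalings.

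The related pyrimidine nucleotide carrier SLC25A36 was at 11.1 ± 0.817 and 11.6 ± 1.28 FPKM, with overlapping groups (adjusted p = 0.675, limma). SLC25A51, the NAD carrier, was at 10.6 ± 1.52 and 10.8 ± 0.509 FPKM, and SLC25A26, the carrier of the methyl donor S-adenosylmethionine, was at 3.93 ± 1.06 and 4.12 ± 0.915 FPKM. SLC25A42, which imports coenzyme A, fell from 1.71 ± 0.0723 to 1.25 ± 0.111 FPKM (adjusted p = 0.0186, limma). That call was lost without unmodified 2 (0.0569) or oxidised 1 (0.0683). SLC25A16, also linked to coenzyme A, was at 5.55 ± 0.751 and 4.75 ± 0.237 FPKM and did not pass. SLC25A16 passed as lower after median-ratio scaling (0.0413), after quantile normalization (0.0195) and without unmodified 3 (0.0319).

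The iron and glutathione carriers were split. SLC25A37, mitoferrin 1, which feeds iron to heme and iron-sulfur cluster synthesis, was at 45.4, 42.9 and 41.4 FPKM with miR-483 and at 28.1, 28.1 and 28.6 FPKM with 8OH-G miR-483. The libraries given the oxidised form were nearly equal and all below those given miR-483 (log2 fold change -0.59, SE 0.062, adjusted p = 7.79e-05, limma). SLC25A28, mitoferrin 2, fell from 8.69 ± 0.489 to 7.22 ± 0.357 FPKM (adjusted p = 0.0208, limma), a call lost without unmodified 2 or 3 or oxidised 2 or 3 (0.0506 to 0.0722). SLC25A37 made up 82.3% to 84.6% of the FPKM of the pair with miR-483 and 78.7% to 80.5% with 8OH-G miR-483. SLC25A39, the glutathione importer, was at 54.9, 58.7 and 57.9 FPKM with miR-483 and at 68.8, 68.0 and 60.6 FPKM with 8OH-G miR-483. It lay near the threshold (log2 fold change 0.20, SE 0.072, adjusted p = 0.044, limma). The SLC25A39 call was lost after median-ratio scaling (0.31), after quantile normalization (0.105), with no filter on low values (0.0563) and without any single library other than oxidised 3 (0.0641 to 0.14). Its close relative SLC25A40 rose from 3.35 ± 0.229 to 4.89 ± 0.489 FPKM.

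**Figure D3:**
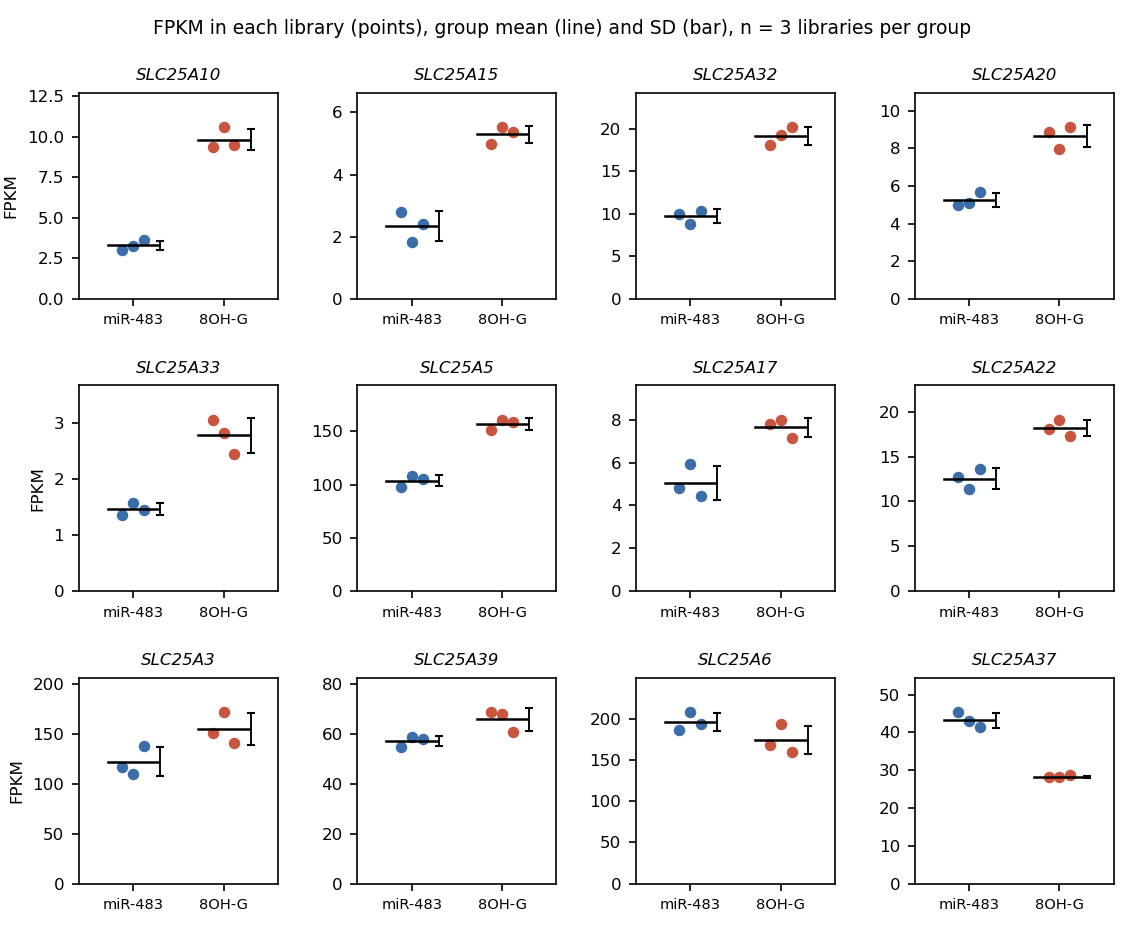
FPKM of 12 carriers, 1 panel each with a linear axis from 0; points are libraries, lines group means and bars the SD of 3 libraries. The groups are apart in every panel except that of SLC25A6, where 1 of the 3 libraries given 8OH-G miR-483 (193 FPKM) lies within the range of those given miR-483.

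The remaining carriers showed small differences or had low levels. SLC25A30, related to the uncoupling proteins, rose from 8.76 ± 1.27 to 11.1 ± 0.410 FPKM, and SLC25A14, of the same kind, was at 5.75 ± 0.289 and 5.77 ± 0.439 FPKM. SLC25A46, an outer membrane protein that acts in mitochondrial shape, rose from 11.5 ± 0.232 to 13.8 ± 1.01 FPKM. The little-studied carrier SLC25A43 rose from 3.98 ± 0.281 to 4.78 ± 0.244 FPKM, and SLC25A35 fell from 8.94 ± 0.851 to 7.56 ± 0.144 FPKM. After median-ratio scaling and quantile normalization, the calls on SLC25A30 (adjusted p = 0.1 and 0.147), SLC25A46 (0.146 and 0.197) and SLC25A43 (0.209 and 0.522) were lost. Leaving out unmodified 2 or oxidised 1 or 3 ended that of SLC25A30 (0.053 to 0.0678). Leaving out unmodified 2 or 3 or oxidised 3 ended that of SLC25A46 (0.0515 to 0.058). Leaving out any library ended that of SLC25A43 (0.0528 to 0.145), and any but unmodified 2 that of SLC25A35 (0.084 to 0.176). With no filter on low values SLC25A43 (0.053) and SLC25A35 (0.0631) did not pass either. SLC25A45 was at 1.18 ± 0.174 and 0.907 ± 0.0774 FPKM, reached the minimum for testing only through the miR-483 libraries, and passed only after median-ratio scaling (0.0498) or quantile normalization (0.0452). SLC25A53 was at 2.81 ± 0.454 and 3.00 ± 0.407 FPKM and did not pass.

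The other 4 carriers and the 4 antisense RNAs were not tested for want of signal. SLC25A27 was at 0.731 ± 0.255 and 0.362 ± 0.205 FPKM and SLC25A34 at 0.802 ± 0.434 and 0.803 ± 0.0446 FPKM, in addition to SLC25A18 and SLC25A21. SLC25A5-AS1, SLC25A21-AS1, SLC25A25-AS1 and SLC25A30-AS1 stayed between 0 and 0.637 FPKM in all libraries. When the filter was dropped, none of these 8 passed in limma, the smallest adjusted p being 0.0827 (SLC25A27). The sources used here do not give whether counting used strand, and an antisense RNA and its partner may share reads. Over all members, the summed FPKM was 805 ± 19.3 with miR-483 and 904 ± 41.0 with 8OH-G miR-483. As a share of the FPKM not encoded in mitochondria it was 0.229%, 0.202% and 0.210% with miR-483 and 0.220% to 0.226% with 8OH-G miR-483. The ranges overlapped only through unmodified 1. Its share is uncertain, since the total counted every row and repeated names in that library mostly had 0 on 1 row. Such zeros lower its total beside the other libraries and so raise its share, by an amount not worked out.

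Relatives of the family that carry other names included the gene with the largest difference among all family members measured. UCP2, an inner membrane carrier of short organic acids that is also called an uncoupling protein, was at 9.52, 9.69 and 9.31 FPKM with miR-483 and at 2.85, 3.10 and 2.13 FPKM with 8OH-G miR-483. It was 3.53-fold lower with the oxidised form (log2 fold change -1.52, SE 0.103, adjusted p = 8.07e-06, limma). MTCH2, an outer membrane protein insertase, rose from 23.1 ± 0.716 to 41.4 ± 4.62 FPKM (0.81, SE 0.086). Its paralog MTCH1 fell from 114 ± 4.29 to 98.3 ± 6.36 FPKM (adjusted p = 0.0372, limma), a call lost without unmodified 2 or 3 or oxidised 1 or 3 (0.0574 to 0.119). MTCH2 supplied 16.5% to 17.1% of the FPKM of this pair with miR-483 and 28.5% to 31.3% with 8OH-G miR-483. UCP3 was below 0.5 FPKM.

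Of 15 tested genes of the route by which carriers reach their membrane, 12 rose, 0 fell and 3 did not pass, both as deposited (34.9% and 20.5% of all tested genes rose and fell) and under either scaling (27.2% and 27.3% with median ratios), with a median log2 fold change of 0.54 beside 0.09 for all tested genes. TOMM5, a small subunit of the outer membrane pore, rose from 36.2 ± 2.08 to 78.8 ± 3.33 FPKM, and TOMM40, the pore itself, from 21.5 ± 2.13 to 44.4 ± 1.22 FPKM. Of the small chaperones that guide carriers between the membranes, TIMM8A rose from 2.28 ± 0.121 to 5.89 ± 0.558 FPKM and TIMM10 from 9.72 ± 1.15 to 23.2 ± 1.91 FPKM. TOMM70A, the receptor for carrier precursors, rose 1.41-fold, and TIMM22, the inner membrane insertion pore, 1.31-fold. TOMM70A and TIMM22 were named with their values known.

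Of 33 tested enzymes that make or use the carriers' substrates, 17 passed as higher and 3 as lower, beside 34.9% and 20.5% of all tested genes. With median-ratio scaling the counts were 12 and 7, beside 27.2% and 27.3%. The iron-sulfur cluster scaffold ISCU fell from 44.0 ± 2.20 to 36.7 ± 1.67 FPKM. Beside the folate carrier, the folate enzymes MTHFD2 and SHMT1 rose 2.49-fold and 2.36-fold, MTHFD2 from 8.87 ± 0.738 to 22.1 ± 3.19 FPKM. MAT2A, which makes S-adenosylmethionine, rose from 42.4 ± 0.671 to 85.6 ± 7.74 FPKM. Glutamate dehydrogenase (GLUD1) fell from 55.6 ± 1.10 to 35.5 ± 0.961 FPKM and carnitine acetyltransferase (CRAT) from 14.3 ± 0.871 to 9.49 ± 0.359 FPKM.

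Of 23 other mitochondrial transporters and channels tested, 12 passed as higher and 2 as lower (all tested genes: 34.9% and 20.5%), and with median-ratio scaling 9 and 5 (27.2% and 27.3%). SFXN2, counted as higher, reached the minimum for testing only through the 8OH-G miR-483 libraries. SFXN4, a sideroflexin linked to iron-sulfur clusters, rose from 3.44 ± 0.235 to 7.87 ± 0.450 FPKM, and LETM1, a cation exchanger, 1.55-fold. The outer membrane pores VDAC1 and VDAC2 rose 1.43-fold and 1.4-fold. SFXN3 fell from 40.0 ± 0.924 to 31.4 ± 1.25 FPKM. The outer membrane protein TSPO fell from 180 ± 14.2 to 139 ± 19.3 FPKM, a call lost without unmodified 2 (adjusted p = 0.0558) or 3 (0.0714). Without unmodified 3, 1 gene of this list fell.

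**Figure D4:**
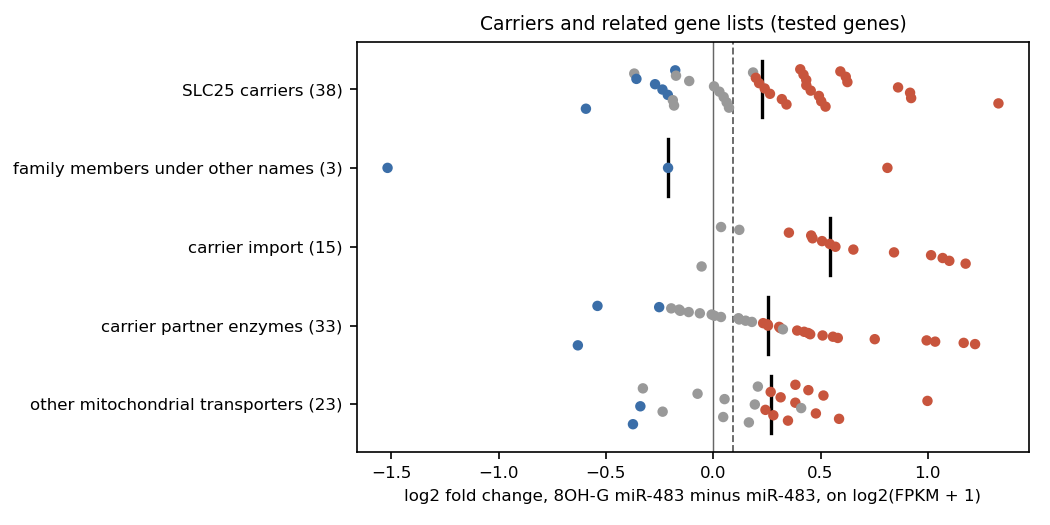
Log2 fold change of each tested gene in 5 lists, with the number of genes in brackets; red points passed as higher, blue as lower and grey did not pass, short black lines are list medians and the dashed line is the median of all tested genes (0.09). The carriers spread to both sides of 0 around a median of 0.23, while the import genes that passed all lie to the right.

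Short sequences from the carriers' promoters are shown because several carriers rose together. The windows come from RefSeq (GRCh38.p14) and hold 250 bases before and 50 after each start site, and 36 of the 42 carriers had one. CACGTG, the E-box letters bound by MYC and related factors, was searched on both strands. It occurred in the windows of 4 of 18 carriers that rose (22.2%), 0 of 4 that fell and 2 of 10 that did not pass. Among these 4, SLC25A38 and SLC25A46 lost the call under both scalings. Among all 27305 windows 7.43% held it, and among those of tested genes 10.5%. Each line gives 30 bases in the direction of the gene, 5′ to 3′, with the E-box in capitals. The carriers that rose are SLC25A13 (chr7:96322235-96322264, minus strand), SLC25A33 (chr1:9539427-9539456, plus strand), SLC25A38 (chr3:39383314-39383343, plus strand) and SLC25A46 (chr5:110738948-110738977, plus strand). Those that did not pass are SLC25A36 (chr3:140941681-140941710, plus strand) and SLC25A51 (chr9:37904169-37904198, minus strand).
SLC25A13: gcgcagcggggtCACGTGtccctgtccagc
SLC25A33: tccggcccccgcCACGTGacggccgcgcgc
SLC25A38: tcagaacaccctCACGTGacaagcgtccca
SLC25A46: agaggctataatCACGTGctccgaagactt
SLC25A36: gcccgtagggatCACGTGaaagaacactgc
SLC25A51: cggtgtctccctCACGTGaccccaacagcg
The first base of the E-box lay at -154, -26, -44, -47, -143 and -59 from the start site, in the order shown. The windows of SLC25A10 and SLC25A15 did not hold these letters. Other motifs were searched in the same way, and the shares among carriers that rose were 11.1% for the NRF1 motif, 16.7% for CCGGAAGT (GABPA), 5.56% for TGATGNAA (ATF4) and 5.56% for TCACNCCAC (SREBF), beside 12.6%, 9.61%, 1.54% and 1.15% of tested genes. With 18 windows, 1 gene is 5.56%, so these shares describe the windows only, and a match is not evidence that a factor binds.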

How the data were processed

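The data were RNA-seq values for 6 libraries of HUVECs, 3 per group. The deposited files hold 1 column of decimal values for 20792 rows each, taken as FPKM scaled by the authors. No header or label names the unit, which was inferred because column totals exceed what TPM or CPM can reach. Per the submitters' processing notes the tools included STAR, HTSeq, cutadapt and DESeq2 and the build was hg19, with no versions or order. Among 1726 to 1930 genes under 0.3 FPKM, ratios between libraries came within 0.02 log2 of a ratio of small whole numbers for 19.4% to 20.2% when the best of 200 relative depths was used and for 16.9% to 17.5% at the median one, so reads were not recovered and depth stays unknown. The precision therefore rests on 3 libraries per group, and no counting interval is given.

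A name on several rows (748 of 18336, among them SLC25A6 and SLC25A26) was kept at its highest value per library. In unmodified 1 these 2 members, like most repeated names, had 0 on 1 row and a value on the other, unlike in the other libraries. Totals per library counted every row, so the total of unmodified 1 and shares of it are uncertain. The test took the 12729 names that reached 1 FPKM in 3 or more libraries. The fit was limma 3.58.1 in R 4.3.3 on log2(FPKM + 1), with a mean-variance trend, robust shrinkage, no covariate and Benjamini-Hochberg adjustment at 0.05. Positive log2 fold changes mean higher with the oxidised form, are on the log2(FPKM + 1) scale and so understate changes at low levels, and N-fold values are ratios of mean FPKM. The fit was also run on simulated data in which far fewer genes changed than passed here, so that run does not cover the conditions of these data.

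The members and lists were chosen with earlier results of these data known. Values in all 6 libraries were given for members past the threshold with a log2 fold change of at least 0.5 in size and for the 5 with the highest mean, and of every related list up to 4 genes per direction with the smallest p were named. The library values of SLC25A29 and UCP2, and the genes TOMM70A and TIMM22, were added after their values were seen. Some items that the rule would name are not reported here, though counts and medians over a list include all its tested genes. Listed genes with another name were matched through older symbols, and those without a row were not analysed here. Replicate numbers were checked for pairing: the deviations of same-numbered libraries correlated at 0.017, 0.332 and 0.012 over genes, so the numbers were not treated as pairing the libraries. Alternatives covered the pseudocount, filters, scaling, repeated names, a replicate block, each library left out and a fold threshold. Promoter windows are RefSeq's on GRCh38.p14, matched by symbol, and no coordinate was taken to or from hg19. For 36 of 40 members with a window, its last 25 bases were found in a GENCODE 29 transcript of that gene. Pseudogene counts are of RefSeq names and are given above for some members only. Others with named pseudogenes included SLC25A51 (4) and SLC25A3 (3). Figures were drawn with matplotlib 3.10.9 in Python 3.11.15.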

Additional observations from a re-analysis of the deposited data

How the results depend on the processing

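The direction of every member and named related gene that passed as deposited was the same under each of the 14 alternatives that tested it; some low members were not tested under the filter at a mean of 5 FPKM. Calls lost or gained are given beside each gene above, other than those under the fold threshold and the replicate block. Under median-ratio scaling 11 members fell in place of 6. So did 7 partner enzymes in place of 3 and 5 other transporters in place of 2. Under quantile normalization the last 2 counts were also 7 and 5. Of all tested genes, 27.3% fell with median ratios and 28.0% with quantile normalization, in place of 20.5%. Median-ratio scaling moved the median of all genes by -0.10 (log2). With a fold threshold of 1.2, which asks for a larger change, 9 members rose and 1 fell, 2259 of all genes rose and 1182 fell, 8 partner enzymes rose, and 4 other transporters rose and 0 fell. Among the calls that ended there were those of SLC25A1 (adjusted p = 0.372, limma), SLC25A11 (0.162), SLC25A12 (0.118), SLC25A40 (0.131), SLC25A13 (0.0564), SLC25A17 (0.0551) and SLC25A24 (0.0502), and of ISCU and SFXN3. With each library left out in turn, 16 to 18 members rose and 3 to 4 fell, 11 to 13 other transporters rose and 1 to 3 fell, 15 to 17 partner enzymes rose and 3 to 4 fell, 12 import genes rose and 0 fell, and 3698 to 4104 of all genes rose and 2029 to 2491 fell. With a replicate block, 22 members rose and 7 fell, and of all 12729 tested genes 4802 rose and 2799 fell (4437 and 2608 without the block). SLC25A44 then passed as higher (adjusted p = 0.0406, limma) and SLC25A6 as lower (0.0426), and 4 other transporters fell. The replicate numbers share a number only, and not every library correlated best with its own number. Depth is unknown.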

Other observations

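The spread between libraries differed among carriers. The median coefficient of variation over the 38 tested carriers was 7.11% with miR-483 and 6.57% with 8OH-G miR-483. SLC25A26 varied most with miR-483 (27.0%), at 3.22, 5.14 and 3.42 FPKM, and SLC25A29 varied most with 8OH-G miR-483 (27.9%). SLC25A15 had 21.1% with miR-483 and 5.24% with 8OH-G miR-483.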
